A study of Mus musculus with 40 samples.

Results

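Solute carriers are membrane proteins that move amino acids, sugars, nucleosides, vitamins, metals and other ions across the plasma membrane or the membranes of organelles. The genes described here are the autosomal solute carrier (Slc) genes expressed in single cells of female mouse blastocysts, and the comparison asks which carriers marked each lineage. The genes were selected on their measured level: a gene was included when its RPRT was above 4 in at least 5 of 40 cells. RPRT is the read number of a gene in a cell, which the authors normalised to the length that was retrotranscribed and to library depth, so levels of different genes can be compared on it. Of 302 autosomal genes with an Slc symbol considered here, 172 met the rule, out of 17280 genes in the table. Counts of expressing cells near the threshold are therefore given as a description only. Since only 3 trophectoderm cells were measured, a carrier detected in these cells alone could not enter the set.

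All 40 cells were female and came from natural matings of C57BL/6J mothers with CAST/EiJ fathers. At E3.5 they were 3 trophectoderm (TE) cells of 3 embryos and 14 inner cell mass (ICM) cells of 7 embryos. At E4.0 they were 13 primitive endoderm (PrE) cells of 3 embryos and 10 epiblast (Epi) cells of 2 embryos. Embryo 14 gave 7 of the PrE cells and 9 of the Epi cells, and embryo 17 gave the remaining Epi cell. Embryo 4 contributed to both TE and ICM, with 1 cell each. All TE cells, but only 3 ICM cells (35, 64 and 75), stem from previous work of the same authors. The classes had been set by the authors from stage and lineage factors of the same cells.

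The TE forms the outer epithelium of the blastocyst, pumps fluid into its cavity and later contributes to the placenta. The ICM gives rise to the PrE, an epithelium that faces the cavity and lines the yolk sac, and to the Epi, which forms the embryo proper. Carriers work by cotransport with sodium or protons, by exchange or by facilitated diffusion, and several families have a heavy chain or a partner subunit.

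Total counts per cell ranged from 1019112 to 12833051. Summed RPRT of 11 TE markers was 8828 to 13404 in TE cells and at most 158 in PrE and Epi cells. The same sum was 60.6 to 293 in 9 ICM cells and 763 to 2466 in the 5 ICM cells of embryos 4, 12 and 13. In TE cells most of it came from the keratins Krt8 (3522 to 4481) and Krt18 (4837 to 8440). In the 5 ICM cells these were 289 to 1235 and 416 to 1321. Elf5, Tfap2a, Krt7 and Tead4 were each above 4 in 1 of 3 TE cells, and the Tead4 median was lowest in TE. The sum of 12 PrE markers was 848 to 2655 in PrE cells against at most 77 in Epi cells, and that of 11 Epi markers was 2237 to 4146 in Epi cells. Inner cells had been isolated by immunosurgery, in which antibody and complement kill the outer TE cells. For this the blastocysts were held briefly in antibody serum and then in complement serum. PrE cell 59 of embryo 15 had the highest Epi marker sum among PrE cells, at 1640. The number of genes above an RPRT of 4 was 5191, 5904 and 3133 in the TE cells of embryos 2, 4 and 5, against 5421 to 6817 in ICM cells. The part of these differences in the results below was not tested.

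At the edge of the rule, 8 genes were above 4 in exactly 5 cells, among them the thiamine carrier Slc19a2 and the fatty acid protein Slc27a2, and 7 genes were left out with 4 cells, among them the glucose carrier Slc2a4. Most included genes were found in several lineages. RPRT was above 4 in some cell of all 4 classes for 105 of the 172 genes, and in a single class for 2. The median of a class was above 4 for 66 genes in TE, 82 in ICM, 75 in PrE and 77 in Epi cells. It passed 4 in all 4 classes for 25 genes, in a single class for 35 and in none for 50. Of the 172 genes, 5 are named after a carrier without being carriers, and Slc9a3r1 and Slc9a3r2, scaffold proteins that bind carriers at the membrane, are among them. Transcripts of the 172 genes made up 0.678% of the RPRT of a TE cell as the median, 0.451% of an ICM cell, 0.639% of a PrE cell and 0.593% of an Epi cell, with overlapping ranges.

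Each gene was assigned to the class with the highest mean of log2(RPRT + 1), first over the cells of an embryo and then over embryos. By this measure 49 genes (28.5%) were highest in TE, 27 (15.7%) in ICM, 32 (18.6%) in PrE and 64 (37.2%) in Epi. Among all 9704 autosomal genes that met the same expression rule, the shares were 22.7%, 24%, 16% and 37.3%. The distance to the next class was at least 1 on the log2 scale for 21 of the TE genes, 4 of the ICM genes, 5 of the PrE genes and 26 of the Epi genes, which is 12.2%, 2.33%, 2.91% and 15.1% of the carriers against 8.77%, 3.01%, 2.62% and 11.2% of all genes. The number for Epi rested on the single cell of embryo 17 to a large part, since it dropped from 64 to 43 without that cell. These assignments are a description and were not tested.

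**Figure D1:**
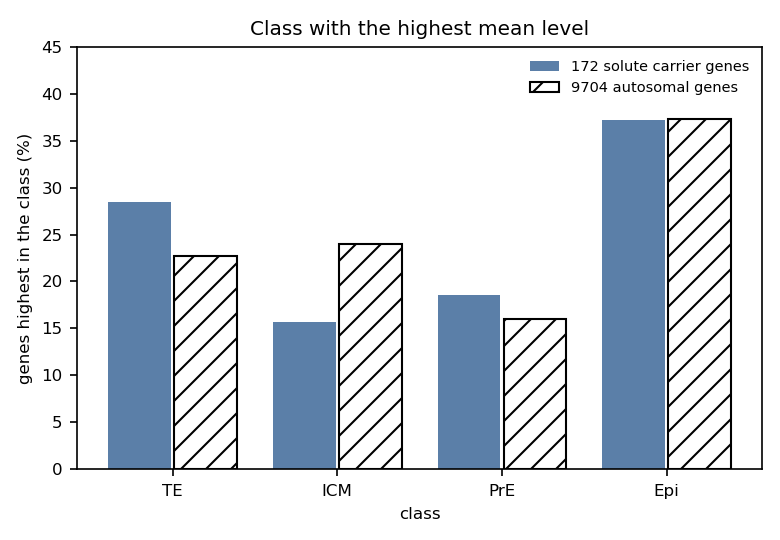
Share of genes (y axis, percent) whose mean log2(RPRT + 1) was highest in each class (x axis), for the 172 solute carrier genes (filled bars) and for 9704 autosomal genes that met the same rule (hatched bars). The carriers and all genes have nearly the same share in Epi (37.2% and 37.3%), while the carriers have the lower share in ICM (15.7% against 24%). The number highest in ICM, 27, ranged from 21 to 42 when an embryo was left out. Of these 27, 6 kept ICM as the highest class in all alternative settings.

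By substrate, 12 of the 24 carriers of sugars, lactate and organic ions were highest in TE. The share in TE was 28.5% of all 172 genes and 22.7% of all autosomal genes of the same rule. Of the 49 genes highest in TE, 20 stayed so in all 19 alternative settings described below. Of the 27 carriers of the mitochondrial family Slc25, 14 were highest in Epi, where 37.2% of all 172 genes were. Of these 14, 7 were no longer highest in Epi without the cell of embryo 17. The 30 amino acid and peptide carriers split into 7, 5, 7 and 11 genes highest in TE, ICM, PrE and Epi. Of 25 metal carriers, 5, 6, 6 and 8 were highest in these classes. Of the 31 carriers of nucleosides, nucleotide sugars, vitamins and coenzymes, 7, 6, 8 and 10 were highest in these classes.

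For the tests, the counts of all cells of a class in an embryo were added up, giving 15 libraries, which were fitted with the quasi-likelihood F test of edgeR over all classes, with Benjamini-Hochberg adjustment over 12599 genes and a threshold of 0.05. All 172 carriers passed the filter on low counts. It asks for a minimum level in a number of libraries, of any class, that is set by the size of the smallest class. This favours genes that are high somewhere. Between Epi and PrE, PrE and ICM, and Epi and ICM, no carrier passed. Over all genes tested, 0 passed between Epi and PrE (0%), 0 between PrE and ICM (0%) and 1 between Epi and ICM (0.00794%). At an unadjusted p below 0.05 there were 17, 19 and 15 carriers in the 3 comparisons (backgrounds 7.66%, 9.21% and 7.27%). DESeq2 called 6, 8 and 10 carriers in them (backgrounds 3.33%, 2.77% and 3.92%). Limma-voom called 6, 8 and 6 (1.9%, 1.99% and 1.9%), and with embryo as a replicate block 11, 7 and 7 (2.71%, 1.92% and 1.9%). Limma on log2(RPRT + 1) called 3 between Epi and PrE and 5 between Epi and ICM (0.377% and 0.479%). The median log2 fold change of the carriers was -0.30, 0.08 and -0.24, beside -0.11, -0.05 and -0.21 over all genes tested. With 9 of 10 Epi cells from the same embryo, these comparisons rest on very few independent samples.

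ICM differed from TE in 7 carriers (4.07%), of which 5 were higher and 2 lower in ICM, at a background of 4.23% of all genes (2.14% higher and 2.1% lower). The share of carriers was thus close to that of all genes. A difference among the 4 classes in any direction was called for 12 carriers (6.98%), against 4.33% of all genes. At an unadjusted p below 0.05 there were 54 carriers in either test (backgrounds 24.6% and 23.2%). Among the 12 carriers were Slc13a2, Slc15a2, Slc5a6, Slc34a2, Slc37a2, Slc29a4, Slc24a5, Slc9a3r2, Slc17a9, Slc25a44 and Slc25a17. The count for ICM against TE was 2 without embryo 5, 9 or 10 and 18 without embryo 2, and of the embryos only 15 and 17 could be left out without moving it by over 1.5 times. That for any difference was lowest without embryo 14, at 3, and highest without embryo 2, at 19, and it moved by over 1.5 times for all embryos other than 4, 11, 12 and 13. Without the 5 ICM cells high in TE markers, 5 carriers were called between ICM and TE (1 higher and 4 lower in ICM, background 2.52%) and 12 for any difference (background 4.91%). Of the 7 carriers called between ICM and TE with all cells, only Slc25a17 was among these 5. Slc13a2, Slc5a6, Slc1a3, Slc25a13, Slc39a10 and Slc4a1ap were no longer called. The direction also depended on the scaling. The median log2 fold change of all genes, ICM over TE, was 0.70 with TMM, 1.09 with library size alone and -0.07 with DESeq2, which called 21 carriers higher and 26 lower in ICM (background 22%). For any difference it called 46 carriers (background 18.2%). Limma-voom called 9 carriers between ICM and TE (background 3.41%, and 3.44% with the block) and 29 for any difference (8.68%, and 9% with the block). No carrier separated Epi from PrE over all cells upward or downward (0.505% and 0.371% of 9704 autosomal genes did), or exceeded all ICM cells in every PrE cell (0.0103%) or every Epi cell (0.0824%).

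**Figure D2:**
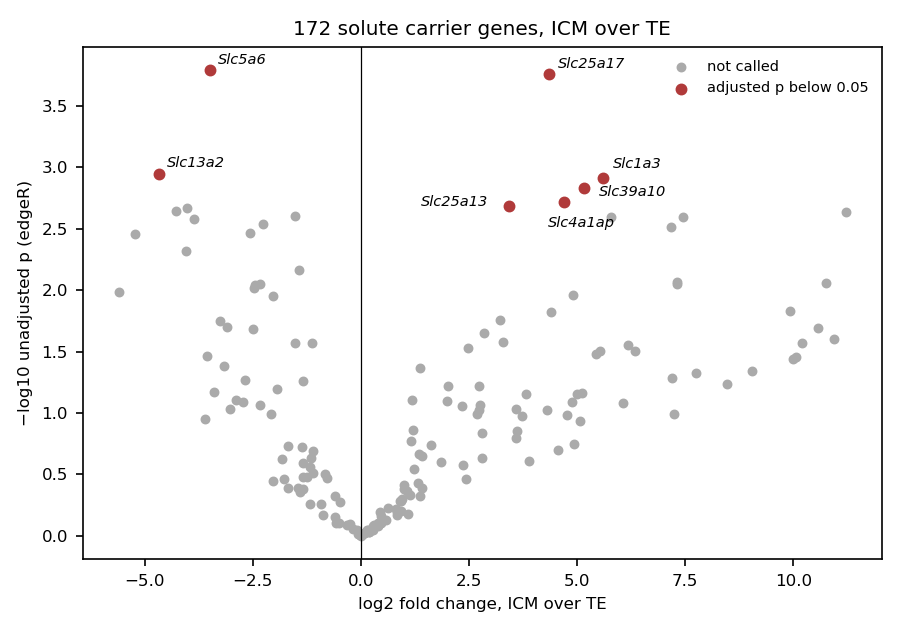
Log2 fold change of ICM over TE (x axis) against −log10 of the unadjusted p of edgeR (y axis) for the 172 solute carrier genes, with 1 point per gene. The 7 called genes are named, with Slc13a2 and Slc5a6 on the side of TE and 5 genes on the side of ICM.

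Among carriers highest in TE, Slc15a2, which takes up di- and tripeptides with protons, had the largest margin over the next class, at 4.55 on the log2 scale. On mm10 the gene lies at chr16:36750177-36784962 on the minus strand. Its RPRT was 61.2, 66.4 and 34.4 in the TE cells of embryos 2, 4 and 5. In ICM cells it ranged from 0 to 31.6 with a median of 0.0503, in PrE cells it was at most 0.921, and in Epi cells it was listed at 0. No ICM cell reached the lowest TE cell, a pattern that 0.927% of the 9704 autosomal genes shared. The log2 fold change of ICM over TE was -5.23 ± 1.57 (SE) and did not pass in edgeR (adjusted p = 0.0624), while the difference among the 4 classes did (adjusted p = 0.00965). Limma-voom with the embryo block called ICM over TE (log2 fold change -8.84, adjusted p = 0.0014). Within embryo 4, the TE cell had 66.4 and the ICM cell 8.68. The 3 ICM cells from the same earlier work as the TE cells had 8.68, 0 and 10.1.

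Slc13a2, a sodium-coupled carrier of succinate, citrate and other dicarboxylates (chr11:78397087-78422217, minus strand), followed with 55.1, 23.1 and 138 in the TE cells. ICM cells had 0 to 33.2 (median 1.67), PrE cells at most 3.13 and Epi cells at most 1.99. It was lower in ICM than in TE by a log2 fold change of -4.67 ± 1.24 (SE, edgeR adjusted p = 0.0403), or -5.38 relative to the median of all genes. That call held in 15 of 24 alternatives, with adjusted p-values between 2.82e-05 and 0.197. Embryo 4 again showed the order, with 23.1 in its TE cell and 0 in its ICM cell.

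Slc34a2, the sodium phosphate cotransporter of epithelia (chr5:53038081-53071664, plus strand), had 14.8, 24.2 and 104 in TE cells, against 0.283 to 27.6 in ICM and at most 0.42 in Epi. In PrE it was above 4 in 4 of 13 cells, up to 30.4. Slc5a6, which takes up biotin and pantothenate with sodium, was called lower in ICM than in TE, by -3.49 ± 0.76 (SE, edgeR adjusted p = 0.0216), or -4.19 relative to all genes. Its TE values were 264, 11.2 and 200, so the cell of embryo 4 lay within the range of the ICM cells, 2.12 to 75.9. Within embryo 4 the order was opposite to the call, with 11.2 in the TE cell and 32.6 in the ICM cell. With embryo as a replicate block, limma-voom did not call it (log2 fold change -2.10, adjusted p = 0.233, and 0.213 for any difference). The call held in 19 of 24 alternatives (adjusted p from 4.65e-06 to 0.365).

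The values of TE carriers were compared between ICM cells with and without TE markers. Slc15a2 was 0.101 to 31.6 (median 8.68) in the 5 ICM cells with a TE marker sum of 763 to 2466, and 0 to 4.99 (median 0) in the other 9 ICM cells. Slc34a2 had medians of 8.70 and 1.68 in these sets, and Slc13a2 12.3 and 1.23. The ranges overlapped for all of these, and for Slc5a6, with medians of 32.6 and 23.4. The highest Slc15a2 value of the ICM, 31.6, was in cell 74 of embryo 12, whose TE marker sum was 2354 with 787 for the keratin Krt8 and 1321 for Krt18. Its Slc34a2 value was 0.442. Cell 77 of embryo 13, with a sum of 763, had 0.101 for Slc15a2. The part of TE RNA in these values was not tested.

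Promoter sequence is shown for Slc15a2, Slc13a2 and Slc34a2, which had the largest margins in TE. The letters were chosen because TEAD4, GATA3 and TFAP2C are transcription factors that act in the trophectoderm. The letters searched on both strands were GGAATG for TEAD, AGATAA for GATA and GCCNNNGGC for TFAP2, which reads the same on either strand. Promoters of 300 bases (250 before to 50 after the start) were from RefSeq on GRCm38.p6 and were found for 132 of the 172 genes. Of 31396 autosomal promoters, 14.6% held the TEAD letters, 11.2% the GATA letters and 16.7% the TFAP2 letters. Of the 176 promoters of these 132 carriers, some of which have several, 13.6%, 5.68% and 28.4% did. Capitals mark the matched letters in the stretches below, which read 5′ to 3′ on the strand of the gene.
Slc15a2, GATA letters, chr16:36785042-36785067, minus strand: tttctcaaacAGATAAccctaatcga
Slc34a2, TEAD letters, chr5:53049251-53049276, plus strand: aggcggtcctGGAATGtgcgaggggc
Slc34a2, TFAP2 letters, chr5:53049282-53049310, plus strand: gacagcgactGCCGCCGGCctctttgcgc
Slc13a2, TFAP2 letters, chr11:78422233-78422261, minus strand: tatataagctGCCCCAGGCcacctgctgt
A match is a description of the letters in this window only. Other genes highest in TE also held matches that are not shown, with TFAP2 letters in Slc5a6 and Slc5a11 and TEAD letters in Slc27a1. The letters were not particular to TE carriers. Slc24a5, highest in ICM, held GATA letters, and Slc7a7 and Slc29a1, highest in Epi, held TEAD, GATA and TFAP2 letters. Tead4 itself had a median RPRT of 0.956 in TE cells, against 11.1 in ICM, 13.8 in PrE and 17.4 in Epi. The 2 matches of Slc34a2 lie 92 and 61 bases before a RefSeq start site inside the annotated gene.

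Further carriers with a large margin in TE were Slc37a1, a sugar phosphate exchanger (18.6, 37.9 and 110), Slc30a2, which exports zinc into vesicles (29.6, 21.2 and 84.9), the choline-like carrier Slc44a4 (4.42, 8.16 and 92.5) and Slc5a11, a sodium-coupled carrier of myo-inositol (134, 17.4 and 1.61). None of them passed between ICM and TE in edgeR with the filter and all cells, while DESeq2 called Slc37a1, Slc30a2 and Slc5a11. Slc5a11 was near the threshold (edgeR adjusted p = 0.0553). EdgeR called it without the filter, without cells under 70% mapped or without embryo 5. The highest value of Slc44a4 was in the cell of embryo 5 and that of Slc5a11 in the cell of embryo 2, and TE was their highest class also without these embryos. Slc7a6os, a neighbour of Slc7a6 on the other strand that is not a carrier, had 55.4, 5.55 and 177. The heat map of means shows each of these genes by embryo.

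**Figure D3:**
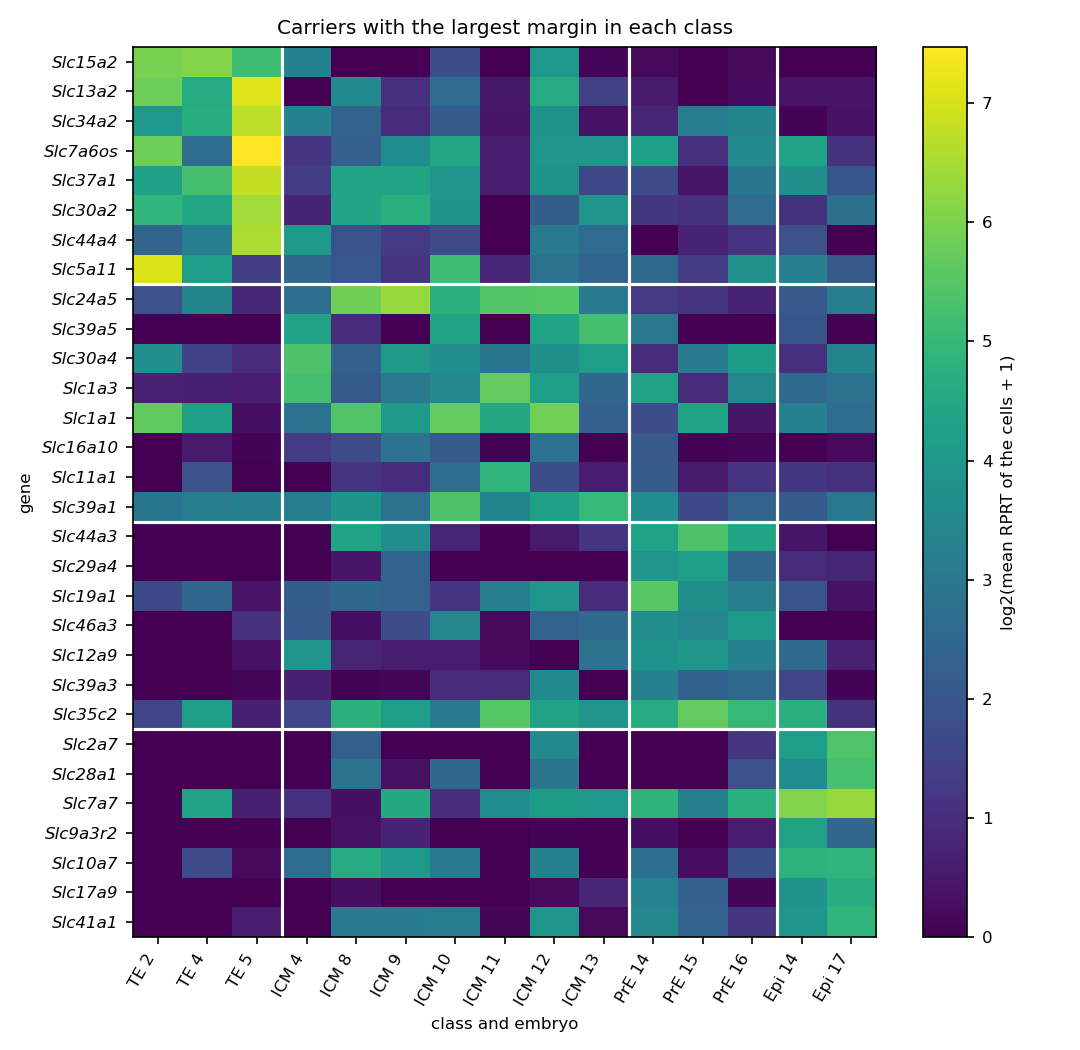
Mean RPRT over the cells of each embryo and class, as log2(mean + 1) (colour), for genes with the largest margin in TE, ICM, PrE and Epi (rows, from top to bottom) across the 15 sums (columns, class and embryo number). White lines separate the classes. Slc15a2 is bright in the 3 TE columns (34.4 to 66.4), and Slc9a3r2 is dark outside the 2 Epi columns.

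In the other direction, 5 carriers were called higher in ICM than in TE. Slc25a17, a peroxisomal carrier of coenzymes, had 0.956, 4.39 and 0.980 in TE cells and 16.3 to 122 (median 48.2) in ICM cells, which did not overlap, and the log2 fold change was 4.35 ± 0.95 (SE, edgeR adjusted p = 0.0217). Relative to all genes this was 3.65, and the call held in 23 of 24 alternatives (adjusted p from 2.4e-06 to 0.0529). Slc25a13, the aspartate glutamate exchanger of mitochondria known as citrin, had 4.44, 10.7 and 0.401 in TE and 12.8 to 128 (median 57.7) in ICM, again without overlap. Its log2 fold change was 3.42 ± 0.97 (SE, edgeR adjusted p = 0.0494), and the call held in 5 of 24 alternatives (adjusted p from 0.000297 to 0.127, the highest being limma-voom with embryo as a replicate block). Complete separation upward, as in these genes and in Slc6a15, a carrier of neutral amino acids, was seen for 1.80% of all autosomal genes. Both Slc25 genes stayed high at E4.0, with medians of 31.9 and 23.6 in PrE and 47.0 and 90.9 in Epi.

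The glutamate carrier Slc1a3 was at 0.602, 0.574 and 0.483 in TE cells and at 0 to 50.4 (median 7.58) in ICM cells, and was called with a log2 fold change of 5.59 ± 1.49 (SE, edgeR adjusted p = 0.0417). The zinc importer Slc39a10 was at 0, 0.722 and 0.722 in TE and at 0 to 51.6 (median 6.39) in ICM, with 5.16 ± 1.41 (SE, edgeR adjusted p = 0.0450). Slc4a1ap, an adaptor protein and not a carrier, was also called, with 4.70 ± 1.32 (SE, edgeR adjusted p = 0.0486). The 3 calls held in 11, 8 and 6 of 24 alternatives, with adjusted p-values up to 0.115, 0.0918 and 0.130. None of these 3 separated the cells of the classes completely. The TE cells had 3133 to 5904 genes above an RPRT of 4, against a median of 6132 in ICM cells, and the part of this in the 5 calls was not tested.

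Of carriers highest in ICM, Slc24a5 was the most distinct. It is a potassium-dependent sodium calcium exchanger, known from pigment cells, and lies at chr2:125068124-125088677 on the plus strand. Its RPRT was above 4 in all 14 ICM cells, from 5.67 to 135 with a median of 29.9. TE cells had 2.63, 9.29 and 0.802, and PrE cells had 0 to 4.72 with a median of 0.775, so that ICM and PrE cells did not overlap, which held downward for 0.134% of autosomal genes. Epi cells were between, at 0 to 11.8 (median 2.74). The difference among the 4 classes passed (edgeR adjusted p = 0.0275, called in 15 of 23 alternatives with adjusted p-values up to 0.114). PrE over ICM alone did not, with a log2 fold change of -5.76 ± 1.37 (SE, adjusted p = 0.162). Limma-voom with the embryo block gave the opposite calls, with an adjusted p of 0.0346 for PrE over ICM and 0.0618 for any difference, and DESeq2 called both. The values in ICM cells with and without TE markers overlapped, with medians of 27.5 and 31.7.

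Slc1a1, a carrier of glutamate and cysteine, was above 4 in 13 of 14 ICM cells (3.87 to 101, median 29.8) and in 2 of 13 PrE cells (median 0.191). TE cells had 48.7, 17.9 and 0.214, so that TE and ICM cells overlapped. The zinc exporter Slc30a4 had a median of 10.3 in ICM, 0.532 in PrE and 0 in Epi, with 11.8, 1.81 and 0.892 in TE. The zinc importer Slc39a1 had medians of 10.2, 5.47 and 1.23 in ICM, PrE and Epi. A second zinc importer, Slc39a5, was above 4 in 5 of 14 ICM cells and listed at 0 in TE. For the aromatic amino acid carrier Slc16a10 and the metal carrier Slc11a1, the ICM medians of 1.1 and 1.75 were low, and 4 and 5 ICM cells were above 4. None of these genes was called by edgeR, DESeq2 or limma-voom between PrE and ICM or between Epi and ICM.

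The carriers with the largest margins for PrE were Slc44a3, Slc29a4, Slc19a1 and Slc46a3. Slc19a1, the reduced folate carrier, was above 4 in 10 PrE cells (0 to 82.7, median 23.8), in 2 of 10 Epi cells (median 0.312) and in 4 of the ICM cells, whose median was 2.22. Within embryo 14, its values were 19.4 to 82.7 in 7 PrE cells and 0 to 11.3 in 9 Epi cells. Slc19a1, Slc7a6 and Slc38a1 were the carriers lower in every Epi cell than in every PrE cell of that embryo, 3 of 172, and 1.34% of autosomal genes were. In the other PrE cells Slc19a1 was at 23.8 and 0.592 in embryo 15 and at 0 to 16.6 in embryo 16. Its log2 fold change of Epi over PrE was -4.23 ± 2.02 (SE). This was called neither by edgeR (adjusted p = 0.649) nor by DESeq2 or limma-voom. Slc46a3, a lysosomal membrane carrier, was above 4 in 8 of 13 PrE cells (0 to 42.9, median 13.7) and listed at 0 in all 10 Epi cells, and its means were 11.7, 10 and 15.5 in PrE cells of embryos 14, 15 and 16. In ICM it was above 4 in 4 of 14 cells, up to 27.9, with embryo means of 0.124 to 9.56. It did not pass in edgeR, and limma-voom with embryo as a replicate block called Epi over PrE (adjusted p = 0.00341).

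Slc44a3, a choline-like carrier, ranged from 0 to 81.1 in PrE (median 5.58), with means of 18.7, 40.5 and 20.3 in embryos 14, 15 and 16, and reached 1.62 in Epi cells. It was listed at 0 in the 3 TE cells. In ICM it was above 4 in 3 of 14 cells, up to 40.2, and the mean of embryo 8, 19.8, was within the range of the PrE embryos. In edgeR it did not pass, but with embryo as a replicate block limma-voom called it for Epi over PrE (log2 fold change -8.16, adjusted p = 0.0193) and PrE over ICM (5.22, adjusted p = 0.028). Slc29a4, which carries monoamines, was above 4 in 6 of 13 PrE cells, up to 48.3, and above 4 in a single ICM cell and a single Epi cell. Its difference among the 4 classes passed (edgeR adjusted p = 0.0225, called in 21 of 23 alternatives with adjusted p-values up to 0.0809), and the replicate block also gave a call for PrE over ICM (limma-voom adjusted p = 0.000167). Epi over PrE was called neither by edgeR (adjusted p = 0.675) nor by DESeq2 or limma-voom. The cation chloride family member Slc12a9 had a PrE median of 6.08 and an Epi median of 1.07. Slc39a3, a zinc importer, was above 4 in 4 PrE cells, and Slc35c2 of the Golgi had a median of 24.5 in PrE and 14.2 in Epi with wide overlap.

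**Figure D4:**
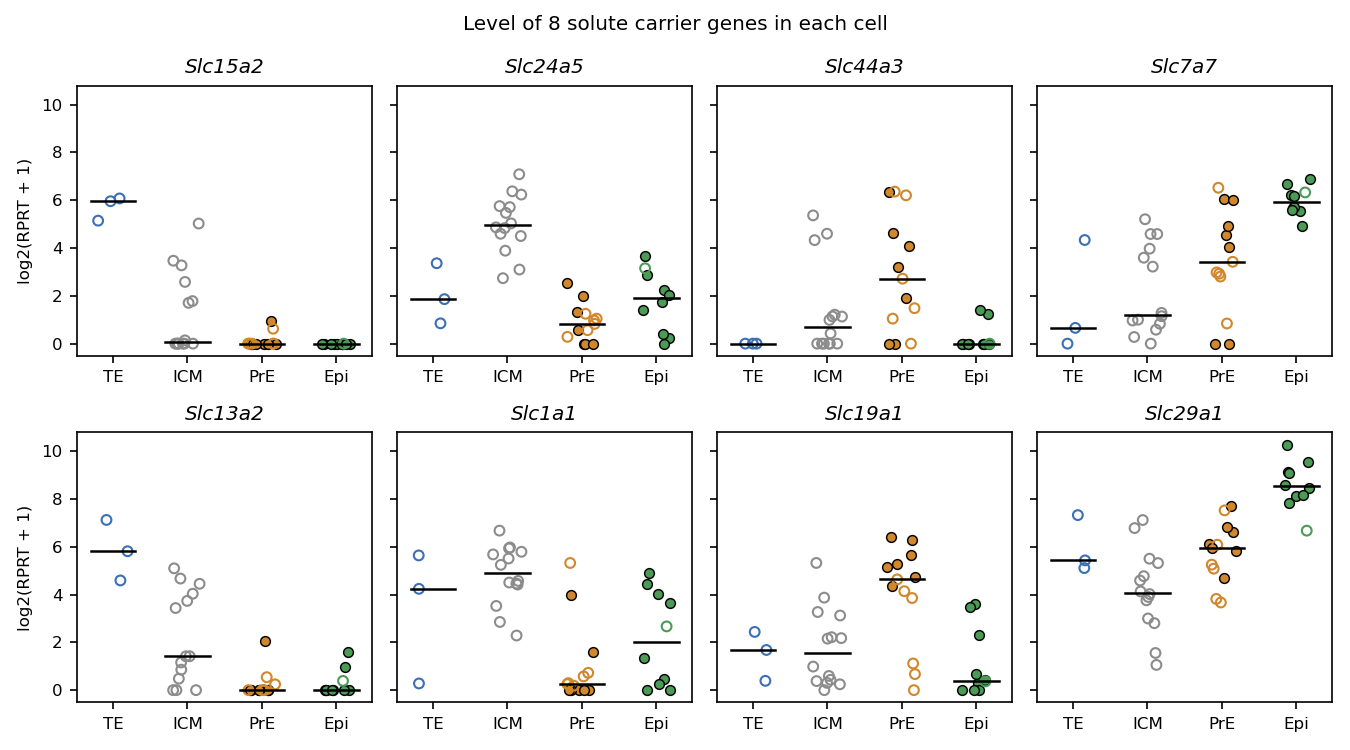
RPRT of 8 carriers in each cell, as log2(RPRT + 1) (y axis), by class (x axis). Each point is a cell, filled points are cells of embryo 14, and lines are medians over cells. Slc15a2 is at or above 34.4 only in TE cells, Slc24a5 is above 4 in all 14 ICM cells, and Slc7a7 and Slc29a1 are high in all 10 Epi cells.

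Among carriers highest in Epi, Slc29a1, Slc7a7 and Slc10a7 were above 4 in all 10 Epi cells. Slc29a1, the equilibrative nucleoside carrier ENT1 (chr17:45585200-45599606, minus strand), had an RPRT of 101 to 1230 with a median of 370 in Epi cells, the lowest value being the cell of embryo 17. The medians were 61.4 in PrE (11.7 to 208) and 15.9 in ICM (1.08 to 138), and TE cells had 33.5, 42 and 159. Within embryo 14, Epi cells (227 to 1230) lay above PrE cells (24.7 to 208) without overlap, which 1.01% of autosomal genes also did, and Slc29a1 was the only carrier to do so. Over embryos, the log2 fold change was 3.68 ± 0.88 (SE) for Epi over ICM and 2.01 ± 1.13 (SE) for Epi over PrE, with adjusted p-values of 0.155 and 0.680 in edgeR. With embryo as a replicate block, limma-voom called Epi over ICM (log2 fold change 4.41, adjusted p = 0.00287) and any difference (adjusted p = 0.0341).

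Slc7a7, the light chain of a heterodimeric exchanger of cationic and neutral amino acids, was at 29.7 to 116 (median 61.1) in all 10 Epi cells. It ranged from 0 to 90.9 in PrE (median 9.73) and from 0 to 35.9 in ICM (median 1.33), and TE cells had 0, 19.2 and 0.579. The Epi cells overlapped with the upper PrE cells, and the log2 fold change was 1.43 ± 1.84 (SE) for Epi over PrE and 3.10 ± 1.45 (SE) for Epi over ICM (edgeR adjusted p = 0.966 and 0.674). The replicate block gave a call for Epi over ICM (limma-voom log2 fold change 5.09, adjusted p = 0.0267). Slc10a7, of the bile acid carrier family, was at 9.74 to 74.3 in Epi cells and above 4 in 9 ICM cells and 3 PrE cells.

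Other genes highest in Epi were not found in every Epi cell. The scaffold Slc9a3r2 was above 4 in 7 of 10 Epi cells (up to 67.3) and at most 1.21 elsewhere, with 0 in all TE cells. Slc17a9, which loads vesicles with ATP, was above 4 in 8 of 10 Epi cells and in 5 of 13 PrE cells, and at most 0.731 in ICM cells. In embryo 14, its medians were 7.18 in Epi and 6.07 in PrE cells. For both genes the difference among the 4 classes passed (edgeR adjusted p = 0.0363 and 0.0382), in 15 and 13 of 23 alternatives with adjusted p-values up to 0.234 and 0.104. Limma-voom with the embryo block also called both for Epi over ICM (adjusted p = 0.000192 and 0.00108), and Slc9a3r2 for Epi over PrE (adjusted p = 0.0113). Slc9a3r2 met the expression rule through its Epi cells alone. Its tests are therefore drawn from the values that selected it and are given as a description only. Slc15a2, Slc29a4, Slc44a3 and Slc46a3 would also have had fewer than 5 cells above 4 without their highest class. The same limit applies to the tests given for them above.

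Slc2a7, of the family of sugar carriers, and Slc28a1, a sodium-coupled carrier of pyrimidine nucleosides, had the largest margins for Epi (3.67 and 3.23), but each was above 4 in 5 of 10 Epi cells. Their margins were raised by the single cell of embryo 17, at 41.5 and 38.7, which weighs as much as the 9 cells of embryo 14. Neither passed in edgeR, and limma-voom with embryo as a replicate block called both for Epi over PrE (adjusted p = 0.00373 and 0.0338) and for Epi over ICM (0.00615 and 0.0497). Slc41a1, a magnesium carrier, was above 4 in 8 Epi cells, 8 ICM cells and 5 PrE cells. On the side of absence, the sugar phosphate exchanger Slc37a2 was below every ICM cell in all 10 Epi cells (0 to 1.14 against 1.84 to 25.5), which 0.227% of autosomal genes shared. Its TE values were 20.6, 6.65 and 86.9, and its difference among the classes passed (edgeR adjusted p = 0.0219, in 17 of 23 alternatives with adjusted p-values up to 0.114, and 0.0574 in limma-voom with the replicate block).

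The 6 most abundant carriers were present in all lineages, and 3 of them sit in the mitochondrial inner membrane. Slc25a4, the ADP/ATP exchanger, was at 801, 416 and 1300 in TE cells, and the medians were 453 in ICM, 904 in PrE and 365 in Epi. The phosphate carrier Slc25a3 was at 608, 396 and 672 in TE cells and had medians of 301, 311 and 640 in the other classes. Slc25a39, needed for glutathione import into mitochondria, was at 212, 166 and 388 in TE cells, with medians of 209, 109 and 147. Slc35b1, which exchanges ATP across the membrane of the endoplasmic reticulum, was at 67.1, 17.8 and 47.4 in TE and at medians of 139, 161 and 140 in the other classes. Slc29a1 and Slc3a2 complete this set. None of the 6 was called by edgeR with the filter and all cells. Without the filter, edgeR called Slc29a1 for Epi over ICM and for any difference, and Slc25a4 for any difference. Without embryo 2, it called Slc25a3, Slc25a4 and Slc29a1 for ICM over TE. With embryo as a replicate block, limma-voom called Slc25a4 for Epi over PrE (log2 fold change -1.62, adjusted p = 0.0375), for PrE over ICM (1.39, adjusted p = 0.0212) and for any difference (adjusted p = 0.0444). DESeq2 called Slc25a3, Slc25a4 and Slc25a39 between ICM and TE.

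Slc3a2 is the heavy chain that brings several Slc7 light chains to the membrane. It was present in every cell, from 5.12 to 240, with medians of 72.8 in ICM, 136 in PrE and 100 in Epi and TE values of 22, 68.7 and 5.12. Its light chains had different patterns. Slc7a7 was highest in Epi. Slc7a6, which exchanges the same kinds of amino acids, was at 12.9 to 193 (median 76) in PrE and at 0 to 45.6 (median 3.18) in Epi. In embryo 14 these ranges were 62.8 to 193 and 0 to 45.6, without overlap. The log2 fold change of Slc7a6, Epi over PrE, was -4.32 ± 1.70 (SE) and did not pass (edgeR adjusted p = 0.629). TE cells had 197, 33.5 and 32.8 for Slc7a6. Slc7a5, the light chain for large neutral amino acids, had medians of 20.8, 18.5 and 14.9 in ICM, PrE and Epi, and Slc7a11, the light chain for cystine, 9.74, 20.1 and 21.2, with ranges that overlapped.

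Among the sodium-coupled neutral amino acid carriers of the Slc38 family, Slc38a2 was listed at 0, 0.244 and 0 in TE cells and had a median of 0.205 in ICM, where 4 of 14 cells were above 4. It was at 0.194 to 166 (median 58.2) in PrE and at 8.21 to 119 (median 32.5) in Epi. Despite this contrast between stages, the log2 fold changes of 3.23 ± 1.58 (SE) for PrE over ICM and 2.28 ± 1.73 (SE) for Epi over ICM did not pass (edgeR adjusted p = 0.545 and 0.795). The highest ICM cell reached 47. Slc7a1, a carrier of cationic amino acids, showed the same order, with medians of 0.564 in ICM, 19.3 in PrE and 10.6 in Epi. Both comparisons share the ICM cells. Slc38a1, by contrast, was at 10.2, 10.5 and 0 in TE cells, which gave it TE as its highest class, and above 4 in 7 of 13 PrE cells, and it was at most 3.38 in ICM and 0.358 in Epi. The replicate block gave calls for Slc38a2 for any difference (limma-voom adjusted p = 0.0239) and for Slc38a1 for PrE over ICM (0.0177) and Epi over PrE (0.0436).

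Zinc carriers did not share a class. Of 8 Slc30 genes, which move zinc out of the cytosol, 2 were highest in TE, 1 in ICM, 2 in PrE and 3 in Epi, and of 12 Slc39 genes, which move it in, 2, 3, 3 and 4. Slc30a1, the exporter of the plasma membrane, had 67.9, 43.8 and 69.3 in TE cells against medians of 16.9, 4.51 and 6.28 in ICM, PrE and Epi. Slc39a7, which releases zinc from the endoplasmic reticulum, was the most abundant of its family, with a median of 130 in PrE and 38.9 in Epi. Neither was called by edgeR, but with embryo as a replicate block limma-voom called Slc30a1 for any difference (adjusted p = 0.0351) and Slc39a7 for Epi over PrE (log2 fold change -2.19, adjusted p = 0.0418).

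Transport genes outside the Slc families were described from lists. Of 9 tested sodium pump genes, the regulatory subunits Fxyd4 and Fxyd6 passed for any difference (edgeR adjusted p = 0.0221 and 0.0441), with TE medians of 69.2 and 44.5 and 0 in all PrE cells. The summed RPRT of 11 sodium pump genes was 333 to 777 in TE cells, 41.5 to 276 in ICM, 74.4 to 390 in PrE and 32.3 to 240 in Epi. Of 5 tested aquaporins, Aqp8 was called, higher in ICM than in TE by 4.40 (edgeR adjusted p = 0.0399) and for any difference (adjusted p = 0.00833). Limma-voom with the embryo block did not call Aqp8 for ICM over TE (adjusted p = 0.192) and called it for Epi over PrE (0.0349). It was at 49.8 to 828 (median 471) in PrE cells and at most 2.79 in Epi cells.

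Sequence differences between the C57BL/6J and CAST/EiJ genomes gave the paternal share of transcripts, in cells with an RPRT above 4. Since all cells came from the same direction of the cross, parent and strain cannot be told apart, and read numbers behind the shares were not given, so no interval can be attached to them. A share was available for 155 carriers and in at least 5 cells for 133. Their median of mean shares was 0.522, beside 0.498 for all autosomal genes of the same rule. A mean share of at least 0.85 was seen for 3 carriers and of at most 0.15 for 5. Among 7817 autosomal genes, 182 and 174 did.

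Slc38a4, a neutral amino acid carrier known as an imprinted gene with paternal expression in the mouse, had a paternal share of 0.999 ± 0.0015 (SD, n = 29 cells), and no cell was below 0.995. All 4 classes held such cells, with 2 TE, 11 ICM, 8 PrE and 8 Epi cells. Slc2a7 was at 0.998 (n = 7 cells) and Slc38a1 at 0.988 (n = 8 cells). Maternal transcripts made up nearly all of Slc4a5, a sodium bicarbonate cotransporter, with a paternal share of 0.005 in 6 cells of 6 embryos. Slc9a3r2 was at 0.004 in 5 Epi cells of embryo 14, so it rests on the cells of that embryo. The fatty acid protein Slc27a1 (0.143, 7 cells) and the sugar carrier family member Slc5a4b (0.125, 8 cells) each held a single cell near 1 among maternal cells. Slc22a23 (0.105, 7 cells) was at 0.212 and 0.522 in 2 ICM cells and at 0 in the other cells. Slc5a4b has a close paralog in the mouse, and reads of such copies may be assigned uncertainly. The part of sampling from few molecules per cell in these shares was not tested.

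**Figure D5:**
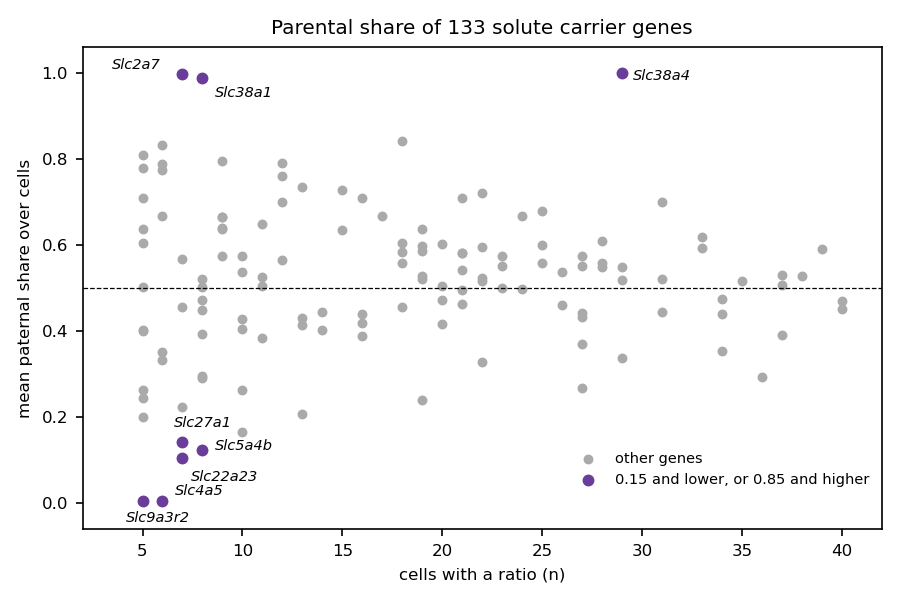
Mean paternal share over cells (y axis, from 0 for maternal to 1 for paternal) against the number of cells with a share (x axis) for 133 carriers with a share in at least 5 cells, with 1 point per gene. The dashed line marks equal shares. Slc38a4 is at 0.999 in 29 cells, and the other 7 named genes rest on 5 to 8 cells.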

How the data were processed

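Polyadenylated RNA of single cells was reverse transcribed from its 3′ end, amplified and sequenced. The counts were deposited by the authors as raw read counts per gene, aligned to mm10 by TopHat2 2.1.0 and counted by HTSeq 0.6.1. RPRT is a signal that the authors normalised to retrotranscribed length and depth. Allelic ratios are fractions deposited by the authors, as paternal over paternal plus maternal reads, without read numbers. Class and embryo were taken from the supplementary list of the study, matched by cell title, since the labels give the stage only. The embryo was the replicate, and the counts of its cells were added up within each class, giving 15 libraries. Where nothing says otherwise, p-values measure the spread between these libraries, and edgeR named alone means its fit to all 15 libraries with filter and TMM. Each TE library, the ICM libraries of embryos 4, 11 and 13 and the Epi library of embryo 17 held a single cell. The spread therefore mixes that between embryos with that between cells, and for TE the 2 cannot be told apart. R 4.3.3, edgeR 4.0.16 (filter by class, TMM), limma 3.58.1 and DESeq2 1.42.0 were used, and levels were handled in Python 3.11.15 with pandas 2.3.3. The pipeline was checked on simulated data. Genes and lists were chosen with earlier results of these data known. Named genes were up to 8 per class with the largest margin, the 6 with the highest mean, up to 10 called per direction, genes just inside or outside the rule, those with extreme parental shares, up to 4 per further list, and paralogs whose highest class differs. Embryos 4 and 14 each gave cells to 2 classes, so embryo was a random block in an alternative (correlation within embryo 0.187). Some single genes are not reported here.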

Additional observations from a re-analysis of the deposited data

Results flagged for a closer look

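Among the 7 ICM embryos, a named carrier was marked when the mean of a single embryo stood apart from the others on the log2(RPRT + 1) scale, by a gap beyond the 95% critical value of Dixon's test. Of 50 named carriers tested, 5 were marked, and chance marks about 1 in 20. Slc29a4 had a mean RPRT of 4.18 in the 2 ICM cells of embryo 9, against 0 to 0.364 in the other embryos, and it was highest in PrE. Slc5a6 was at 2.12 in the ICM cell of embryo 11, below 15.2 to 50.2 in the others. Slc38a4 was at 1.62 in the ICM cell of embryo 13, against 16.8 to 39.2. Slc22a23 was at 26.1 in the ICM cell of embryo 4, against 0 to 7.55, and Slc17a9 was at 0.731 in that of embryo 13, against 0 to 0.233. Embryos 4, 11 and 13 each gave a single ICM cell.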

How the results depend on the processing

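With edgeR, the count of carriers called was 0 between Epi and PrE, between PrE and ICM and between Epi and ICM, also in all fits that left out an embryo (0 to 0). The same comparisons gave 6, 8 and 10 with DESeq2, 6, 8 and 6 with limma-voom, and 11, 7 and 7 with embryo as replicate block. Limma on log2(RPRT + 1) gave 3 for Epi over PrE and 5 for Epi over ICM, and edgeR without a filter gave 1 for Epi over ICM, Slc29a1. For ICM over TE, 7 became 47 with DESeq2, 13 without a filter, 1 on those classes only and 2 to 18 when an embryo was left out. For any difference, 12 became 46 with DESeq2, 29 with limma-voom with or without the replicate block, 28 without a filter and 3 to 19 when an embryo was left out. The cause was not tested. Leaving out an embryo gave 40 to 60 carriers highest in TE, 21 to 42 in ICM, 25 to 44 in PrE and 43 to 81 in Epi, and log2(CPM + 1) gave 50 in PrE. Over 19 alternatives, 64 of 172 carriers kept their highest class in all, as did 30 of the 32 named for a margin, the others being Slc1a1 and Slc39a1. Of 46 fold changes of named carriers, only that of Slc1a3 for PrE over ICM reversed, from -0.25 to 0.18 with limma-voom, 0.18 with the replicate block, 0.35 without the earlier ICM cells, and 0.61 without ICM cells with TE markers. It ranged from -1.17 to 0.41 when an embryo was left out, and was positive without embryo 4 or 15 (0.41 and 0.28). Leaving out the ICM cells with TE markers or PrE cell 59 (6 carriers called for ICM over TE and 13 for any difference) was chosen after seeing the data. With 3 TE cells and 2 Epi embryos, small differences could not be detected, and large ones were also not called. For Epi over PrE, Slc46a3 had a log2 fold change of -12.3 (edgeR adjusted p = 0.581). In the same comparison edgeR called 0 of 12 PrE markers (median log2 fold change -8.20) and 0 of 11 Epi markers (median 3.51). The absence of a call between these classes therefore does not show equal levels.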

Other observations

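Export pumps of the ABC family were described beside the carriers. The summed RPRT of 12 plasma membrane exporters was 27.0 to 29.6 in the 3 TE cells, 15 to 137 in ICM, 24.5 to 253 in PrE and 30.9 to 284 in Epi cells, and 0 of 12 passed in edgeR for any difference among the classes (6 at an unadjusted p below 0.05). With embryo as a replicate block, limma-voom called Abcb1a, Abcc3 and Abcg1 for any difference (adjusted p = 0.0102, 0.00346 and 0.0168). Abcc1, which exports glutathione conjugates, was above 4 in 10 of 14 ICM cells and 10 of 13 PrE cells, with a median of 23.6 in PrE, and at most 0.630 in Epi cells. Epi over PrE had an adjusted p of 0.559 in edgeR and 0.0375 with the replicate block. Of 23 genes of amino acid sensing by mTORC1, the kinase Mtor was called, higher in TE than in ICM by a log2 fold change of ICM over TE of -3.71 (edgeR adjusted p = 0.0436). Its TE values spanned 0.967 to 567, and with embryo as a replicate block limma-voom did not call it (adjusted p = 0.851). The summed level of the list was 519 to 1050 in TE, 459 to 951 in ICM, 421 to 987 in PrE and 254 to 759 in Epi cells.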
